A study of Mus musculus with 20 samples.

Results

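The 7 megakaryocyte and platelet genes described here were Ppbp, Pf4, Itga2b, Gp1bb, Gp9, Treml1 and Plek. They were taken by symbol from a table of 33495 genes in 20 mouse embryonic heart libraries, and each symbol matched 1 gene. The members had been picked with their mutant against control differences in view, so those differences are given as a description. The members were fitted with all other genes, but their calls are given only as counts beside the share of all genes called. Tests of single genes are given only outside the members. Those genes were also listed with results of these data known, so their tests are not independent support.

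The study deleted Kmt2d, a gene for a histone H3 lysine 4 methyltransferase, with 3 Cre lines on a C57BL/6 background and sequenced heart RNA. Mutants were Cre; Kmt2d fl/fl; mTmG/+ and controls, which the labels call WT, were Cre; Kmt2d fl/+; mTmG/+, so that all groups carried Cre, a membrane fluorescent reporter and at least 1 floxed Kmt2d allele. The Mesp1Cre groups were whole hearts labelled E9.0 (4 mutant and 4 control libraries), although a shared protocol text gives E11.5 for every embryo. The Mef2cAHF::Cre groups were right ventricle with outflow tract at E11.5 (3 and 3), and the Tnnt2::Cre groups were whole hearts at E11.5 (3 and 3). Of the Cre drivers, Mesp1Cre is active in early mesodermal cells and Mef2cAHF::Cre in precursors of the anterior heart field. Tnnt2::Cre is a driver of heart muscle cells, and blood cells are not known as part of its domain.

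The genotype of the Mef2cAHF::Cre libraries was given in opposite ways. The sample titles call 3 libraries mutant, while the column names of the deposited table call the same 3 WT. Kmt2d, listed under its older symbol Mll2, was at 187 ± 5.49 CPM (read counts scaled to the size of each library) where the title says mutant and at 149 ± 7.02 CPM where it says control (SD, n = 3 in each). In the other lines Mll2 was lower in mutants, at 133 ± 7.39 against 155 ± 5.06 CPM (n = 4 and 4) in Mesp1Cre and 118 ± 4.28 against 149 ± 21.1 CPM (n = 3 and 3) in Tnnt2::Cre. The level in the Mef2cAHF::Cre libraries went against their titles, so they are named throughout by the titles as "labelled mutant" and "labelled control", and each direction is given for both readings. The labels do not say whether libraries of 1 group came from separate embryos, so the spread between them may be partly technical.

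Megakaryocytes are large blood-forming cells that shed platelets, and platelets circulate through the heart with the other blood cells. Platelets adhere to injured vessel walls through a receptor complex of glycoproteins, bind fibrinogen through an integrin, and release chemokines and adhesive proteins from alpha granules. In the mouse embryo, megakaryocyte precursors arise in the yolk sac together with primitive red cells, and platelets enter the circulation around mid-gestation. The 20 libraries held between 21727258 and 45341870 gene-assigned reads, and all 10 cardiomyocyte markers listed, among them Tnnt2 and Myh6, were detected in every library. In bulk RNA, fewer cells of a type and less RNA per cell cannot be told apart.

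Ppbp and Pf4 encode platelet chemokines stored in alpha granules and are neighbours on mouse chromosome 5 of build mm9. Ppbp lies at chr5:91197544-91199086 and Pf4 at chr5:91201461-91202407, both on the plus strand, with 2374 bases between them. Itga2b (chr11:102314611-102331436, minus strand) encodes the alpha chain of the fibrinogen receptor. Gp1bb (chr16:18620815-18621459, minus strand) and Gp9 (chr6:87728130-87729756, plus strand) encode chains of the receptor for von Willebrand factor. Treml1 (chr17:48499241-48506499, plus strand) encodes an alpha granule receptor that reaches the platelet surface on activation, and Plek (chr11:16871209-16908705, minus strand) encodes pleckstrin, a substrate of protein kinase C in platelets and leukocytes. In the GENCODE annotation of this build, Gp1bb shares 593 exonic bases (31.5% of its own) with Sept5 on the same strand and Plek shares 199 with Cnrip1 on the opposite strand, but in both cases 0 of these bases lie within the interval that the deposited table gives for the gene.

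The 250 bases upstream of the RefSeq start of each gene, from a GRCm38.p6 table, each matched the gene's own mm9 chromosome exactly and once. Only that chromosome was searched, on the strand of the gene. They are shown for the neighbouring chemokine genes and for the members that encode chains of the von Willebrand factor receptor. The windows lie at chr5:91197294-91197543 (plus strand) for Ppbp, chr5:91201211-91201460 (plus strand) for Pf4, chr16:18622497-18622746 (minus strand) for Gp1bb and chr6:87727814-87728063 (plus strand) for Gp9. The RefSeq start of Gp1bb lies upstream of the interval that the deposited table counts. Capitals mark matches to the core letters of GATA factors (AGATAA and AGATAG, as well as TGATAA and TGATAG) or of ETS factors (AGGAAG and likewise CGGAAG) on either strand.
Ppbp: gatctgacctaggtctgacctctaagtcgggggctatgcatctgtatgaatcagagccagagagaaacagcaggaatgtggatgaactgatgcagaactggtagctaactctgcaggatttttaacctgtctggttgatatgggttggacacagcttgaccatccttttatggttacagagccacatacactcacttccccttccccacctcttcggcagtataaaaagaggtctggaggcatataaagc
Pf4: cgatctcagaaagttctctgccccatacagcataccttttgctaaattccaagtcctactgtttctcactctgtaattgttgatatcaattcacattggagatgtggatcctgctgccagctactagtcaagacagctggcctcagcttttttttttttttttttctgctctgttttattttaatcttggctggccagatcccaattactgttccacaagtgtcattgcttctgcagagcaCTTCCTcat
Gp1bb: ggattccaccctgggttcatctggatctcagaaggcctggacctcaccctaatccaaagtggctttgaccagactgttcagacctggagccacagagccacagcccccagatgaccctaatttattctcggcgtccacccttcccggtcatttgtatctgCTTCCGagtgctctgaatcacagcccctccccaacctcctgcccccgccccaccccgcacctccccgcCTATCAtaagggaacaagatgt
Gp9: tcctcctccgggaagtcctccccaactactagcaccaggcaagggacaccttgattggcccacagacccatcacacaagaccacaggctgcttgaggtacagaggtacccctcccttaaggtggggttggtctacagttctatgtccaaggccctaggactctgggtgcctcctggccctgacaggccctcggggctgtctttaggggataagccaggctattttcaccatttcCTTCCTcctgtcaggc
The GATA letters were in 1 of the 7 member windows, that of Gp1bb, where the match (TGATAG on the opposite strand) began 22 bases before the start. Of 32851 promoter windows of the same length, 26.5% held these letters. The ETS letters were in 4 of the 7, at 9 bases before the start in Pf4, 125 and 43 in Itga2b, 90 in Gp1bb and 16 in Gp9, against 39.2% of all windows. Both motifs were in 1 of the 7 and in 9.21% of all windows. The GATA and ETS letters cannot overlap each other by more than their end bases, and a match or its absence describes these letters in this window only.

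In Mesp1Cre hearts labelled E9.0, the platelet chemokines were higher in every mutant library than in any control library. Ppbp read 0.435, 0.205, 1.46 and 0.242 CPM in controls 1 to 4 and 20.4, 11.8, 55.0 and 4.23 in mutants 1 to 4. Its fitted difference was 5.28 ± 0.78 on the log2 scale (fitted value ± SE), a 38.8-fold higher level, and the lowest mutant library stood above the highest control library. The control levels rested on 5 to 37 reads. Pf4 read 7.50, 2.59, 7.32 and 9.66 CPM in controls and 57.8, 37.3, 117 and 26.1 in mutants, a log2 difference of 3.14 ± 0.45 or 8.79-fold. Here too the groups did not overlap, and mutant 3 was the highest for both genes.

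Plek read 10.9, 7.10, 12 and 13.6 CPM in Mesp1Cre controls and 29.7, 16, 63.8 and 12.7 in mutants, with a log2 difference of 1.49 ± 0.41. Mutant 4 lay within the control range, so the groups overlapped. The integrin chain gene Itga2b was closer to level, with 6.59, 3.20, 5.0 and 6.04 CPM in controls, 6.29, 7.21, 11.1 and 5.13 in mutants and a log2 difference of 0.51 ± 0.29. Treml1 read 0.145, 0.164, 0.433 and 1.17 CPM in controls and 1.55, 0.190, 2.05 and 0.666 in mutants (log2 difference 1.22 ± 0.79). In both genes some mutant libraries lay inside the control range.

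Gp9 and Gp1bb had few reads in most libraries of this line. Gp9 read 0.579, 0, 1.14 and 0.523 CPM in controls and 1.72, 0.569, 5.64 and 0.196 in mutants, with a log2 difference of 1.84 ± 0.99 and overlapping groups. The control library with 0 reads allows a level of up to 3 reads, or 0.123 CPM. Gp1bb read 0.109, 0.0410, 0.275 and 0.161 CPM in controls and 1.01, 0.190, 2.56 and 0.196 in mutants, from 1 to 60 reads a library, and did not pass the filter on low counts. Of the 6 members that passed this filter, 3 (Ppbp, Pf4 and Plek) were past a false discovery rate (FDR) of 0.05 in edgeR's quasi-likelihood test and all 3 were higher in mutants, where 6.17% of all 15883 genes tested were higher and 5.29% lower. For Ppbp and Pf4 the groups did not overlap, as for 8.93% of all genes in that direction, 8.8% in the other and 17.7% in either. Since the members were chosen with this contrast in view, nothing is read from these counts. Without mutant 3, the log2 difference was 4.37 ± 0.65 for Ppbp, 2.59 ± 0.36 for Pf4 and 0.85 ± 0.29 for Plek, which was then no longer past the threshold. The Plek call was also lost without any 1 of 5 other libraries and was kept without mutant 2 or mutant 4.

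**Figure D1:**
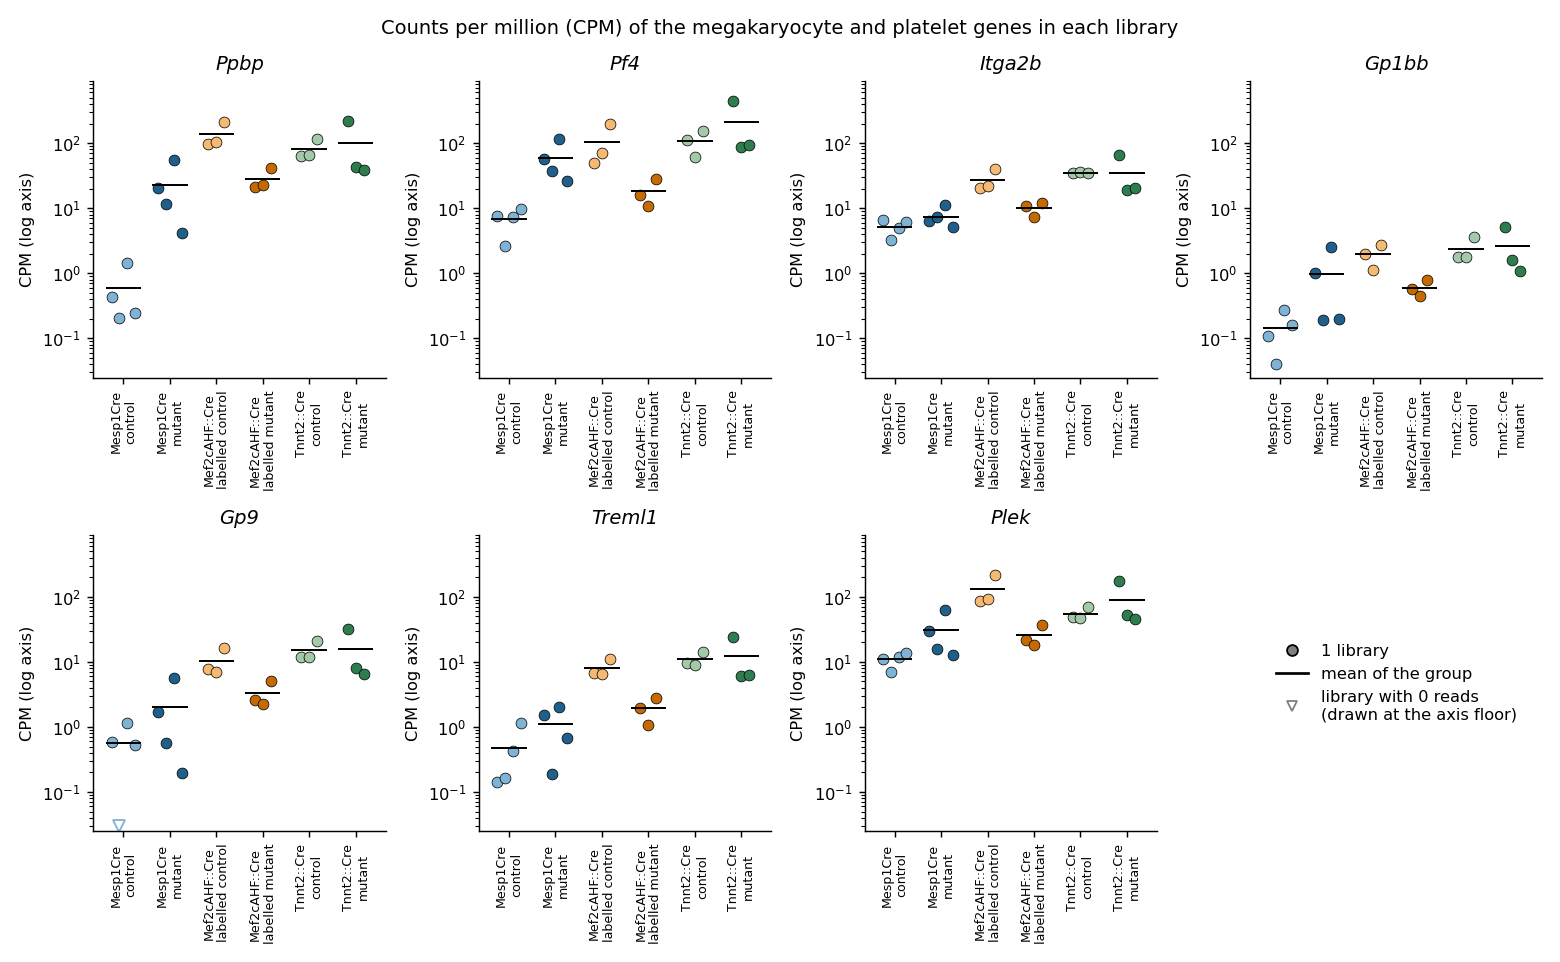
CPM (log axis) of the 7 genes in each library, 1 panel a gene, with 6 groups on the x axis; points are libraries, bars are group means, and the open triangle marks the library with 0 reads. Ppbp lies between 0.205 and 1.46 CPM in Mesp1Cre controls and between 4.23 and 55.0 in mutants, all 7 genes are lower in the Mef2cAHF::Cre libraries labelled mutant than in those labelled control, and Tnnt2::Cre mutant 1 stands above the other libraries of its line in every panel.

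In the Mef2cAHF::Cre line at E11.5, all 7 genes were lower in the libraries labelled mutant than in those labelled control. By the column names of the table the same values read as higher in mutants, with the same sizes. Ppbp read 98.3, 104 and 211 CPM in libraries labelled control 1 to 3 and 20.9, 22.6 and 40.8 in those labelled mutant. Its log2 difference was -2.29 ± 0.33 by the titles, a 4.91-fold lower level. Pf4 read 48.9, 71.0 and 193 CPM in labelled controls and 15.8, 10.7 and 27.7 in labelled mutants, with a log2 difference of -2.53 ± 0.51 (5.76-fold lower). For both chemokine genes the highest library labelled mutant lay below the lowest library labelled control, and replicate 3 was the highest in each group.

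Plek read 86.7, 92.6 and 213 CPM in labelled controls and 21.4, 17.9 and 37.3 in labelled mutants (log2 difference -2.36 ± 0.38). Treml1 read 6.66, 6.56 and 11.1 CPM in labelled controls and 1.96, 1.07 and 2.81 in labelled mutants (-2.04 ± 0.33). Neither gene had overlapping groups, and replicate 3 again was the highest of both. Itga2b read 20.3, 21.9 and 40.2 CPM in labelled controls and 10.7, 7.39 and 12.1 in labelled mutants (-1.44 ± 0.27). Gp1bb read 1.96, 1.14 and 2.74 CPM in labelled controls and 0.569, 0.441 and 0.80 in labelled mutants (-1.67 ± 0.38). Gp9 read 7.87, 7.02 and 16.3 CPM in labelled controls and 2.63, 2.24 and 5.10 in labelled mutants (-1.63 ± 0.38). In these 3 receptor genes, too, every library labelled mutant was below every library labelled control.

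Of the 7 members, 5 were past FDR 0.05 in this line (Ppbp, Pf4, Plek, Treml1 and Itga2b), all lower by the titles, against 1.04% of 16920 genes tested that were lower and 1.81% that were higher. The groups did not overlap for 7 of 7 members, against 10.6% of all genes in that direction and 23.6% in either. The contrast was the one the members were chosen on, and the counts are not support for it. Leaving out labelled mutant 1 or labelled mutant 2 left 0 members past the threshold, with the same sign for every member, and leaving out labelled mutant 3 left 3. The share of all genes called went from 2.85% to 0.451%, 0.435% and 0.853% in these fits.

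In Tnnt2::Cre hearts at E11.5, the members did not separate the groups, and 1 mutant library stood apart. Pf4 read 113, 61.6 and 155 CPM in controls 1 to 3 and 443, 86.8 and 92.9 in mutants 1 to 3, with a log2 difference of 0.90 ± 0.60. Ppbp read 63.7, 65.3 and 114 CPM in controls and 215, 42.6 and 39.0 in mutants (0.27 ± 0.59). Mutant 1 was the highest library of the line for both, while mutants 2 and 3 were below all 3 controls for Ppbp and inside their range for Pf4.

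Plek read 49.3, 48.0 and 68.9 CPM in Tnnt2::Cre controls and 172, 51.7 and 45.4 in mutants (0.68 ± 0.45). Itga2b, with the narrowest control spread, read 34.5, 36.6 and 34.8 CPM in controls and 64.7, 19.0 and 20.3 in mutants (-0.04 ± 0.41). Mutants 2 and 3 were below every control for Itga2b, while for Plek mutant 2 lay inside the control range and mutant 3 below it. Treml1 read 9.61, 9.06 and 14.2 CPM in controls and 24.3, 6.16 and 6.25 in mutants (0.15 ± 0.49). Gp9 read 12.1, 11.8 and 21.3 CPM in controls and 32.0, 7.99 and 6.53 in mutants (0.03 ± 0.54). Gp1bb read 1.75, 1.75 and 3.64 CPM in controls and 5.15, 1.61 and 1.09 in mutants (0.13 ± 0.55). Mutant 1 was again above, and mutants 2 and 3 below, all controls for these 3 genes.

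None of the members was past FDR 0.05 in Tnnt2::Cre by edgeR (0 of 7, also 0 at an unadjusted p under 0.05, by DESeq2 and by limma), against 0.293% of 17045 genes tested in either direction (0.0763% higher and 0.217% lower). All 7 had overlapping groups, while 10.1% of all genes were higher and 7.2% lower in mutants without overlap. Without mutant 1, the log2 difference was -0.86 ± 0.11 for Itga2b, -1.06 ± 0.25 for Gp9, -0.999 ± 0.227 for Ppbp and -0.83 ± 0.20 for Treml1, and these 4 were then past the threshold, all lower in mutants. In that fit 5.12% of all genes were called in either direction. Mutant 1 also held 134947 CPM of summed erythroid markers, against 19928 and 44756 in mutants 2 and 3 and 104465 to 162007 in controls. Its summed macrophage markers read 107 CPM, against 103 and 77.4 in mutants 2 and 3 and 75.5 to 85.1 in controls. The part of other blood cell content in the member values of this library was not tested.

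**Figure D2:**
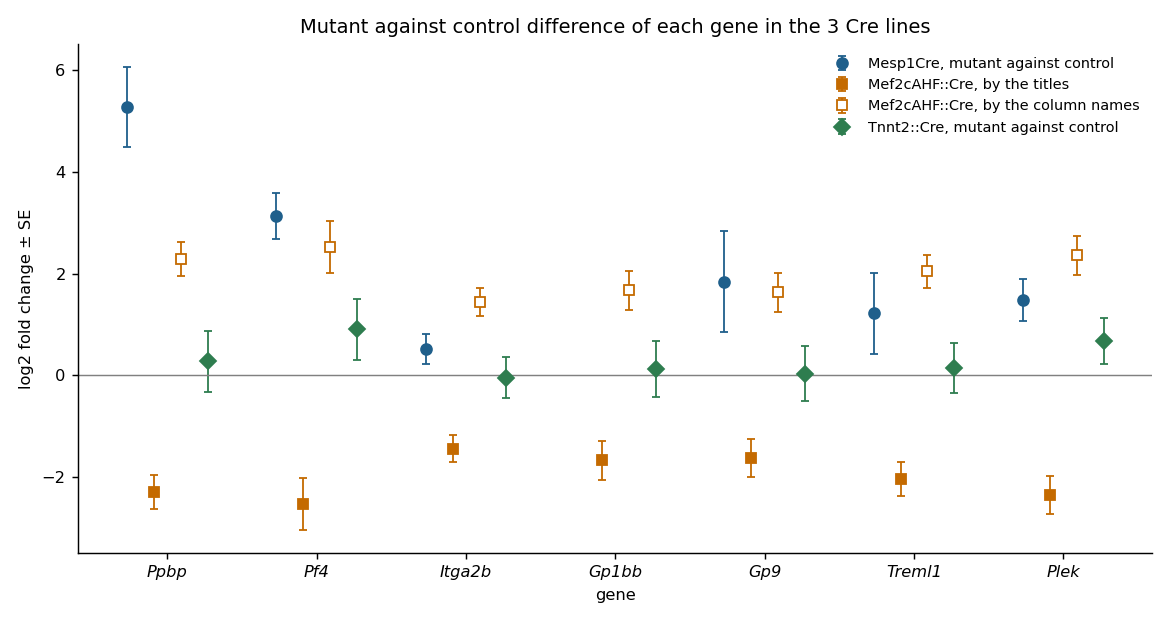
Log2 fold change (y axis) of each gene (x axis) with its standard error as bars, from the edgeR fit of each Cre line; open squares show the Mef2cAHF::Cre values by the column names, which mirror the filled squares by the titles. Ppbp (5.28) and Pf4 (3.14) stand highest in Mesp1Cre, all filled squares lie between -2.53 and -1.44, and the Tnnt2::Cre values lie between -0.04 and 0.90; Gp1bb has no Mesp1Cre point because it did not pass the low-count filter there.

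Levels between genes were compared per length, as FPKM (fragments scaled to gene length and library size) from the deposited table. Pf4 had the highest mean of the members in all 6 groups. It was at 11.2 ± 4.98 FPKM (SD, n = 4) in Mesp1Cre controls, 110 ± 74.2 (n = 4) in Mesp1Cre mutants and 171 ± 68.8 (n = 3) in Tnnt2::Cre controls. Ppbp came next in every group but the Mesp1Cre controls, where it was at 0.531 ± 0.546 FPKM, and it reached 22.9 ± 22.4 in Mesp1Cre mutants and 68.5 ± 21.9 in Tnnt2::Cre controls. In Mesp1Cre controls the second place was that of Plek, at 2.47 ± 0.647 FPKM, followed by Itga2b at 0.925 ± 0.266. The receptor gene Gp9 was at 0.677 ± 0.572 FPKM in Mesp1Cre controls, not apart from Itga2b beyond their spread. In Tnnt2::Cre controls Gp9 was at 16.9 ± 5.47 FPKM, above Itga2b at 5.96 ± 0.290. The neighbours in this order within Mesp1Cre controls, Itga2b, Gp9 and Ppbp, did not differ beyond their spread. Gp1bb had the lowest mean of the members in both these control groups, at 0.222 ± 0.154 FPKM in Mesp1Cre controls and 3.37 ± 1.42 in Tnnt2::Cre controls. In Mesp1Cre mutants Treml1 was the lowest, at 0.970 ± 0.729 FPKM, with Gp1bb at 1.66 ± 1.87. Gp1bb reached its highest level in Tnnt2::Cre mutant 1, and over all 20 libraries it stayed at or below 7.16 FPKM, while Pf4 reached 678.

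The neighbouring chemokine genes did not keep 1 ratio across groups. The ratio of Pf4 to Ppbp FPKM was 31.8, 23.2, 9.26 and 73.7 in Mesp1Cre controls 1 to 4 and 5.21, 5.84, 3.91 and 11.4 in mutants 1 to 4. These control ratios rest on only 12, 5, 37 and 6 reads of Ppbp, so they are imprecise. All mutants but mutant 4 had a ratio below that of every control. In Tnnt2::Cre the ratio was 3.27, 1.74 and 2.49 in controls and 3.79, 3.76 and 4.38 in mutants, so that the groups did not overlap and the mutants were higher. For comparison, the CPM of 17.3% of all genes tested in this line did not overlap, in either direction. In the Mef2cAHF::Cre line it was 0.916, 1.26 and 1.69 in libraries labelled control and 1.40, 0.875 and 1.25 in those labelled mutant, within each other's range. Tnnt2::Cre mutant 1, with the highest Pf4 level of all libraries, had a ratio between those of the other mutants of its line. The ratios are given as a description.

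**Figure D3:**
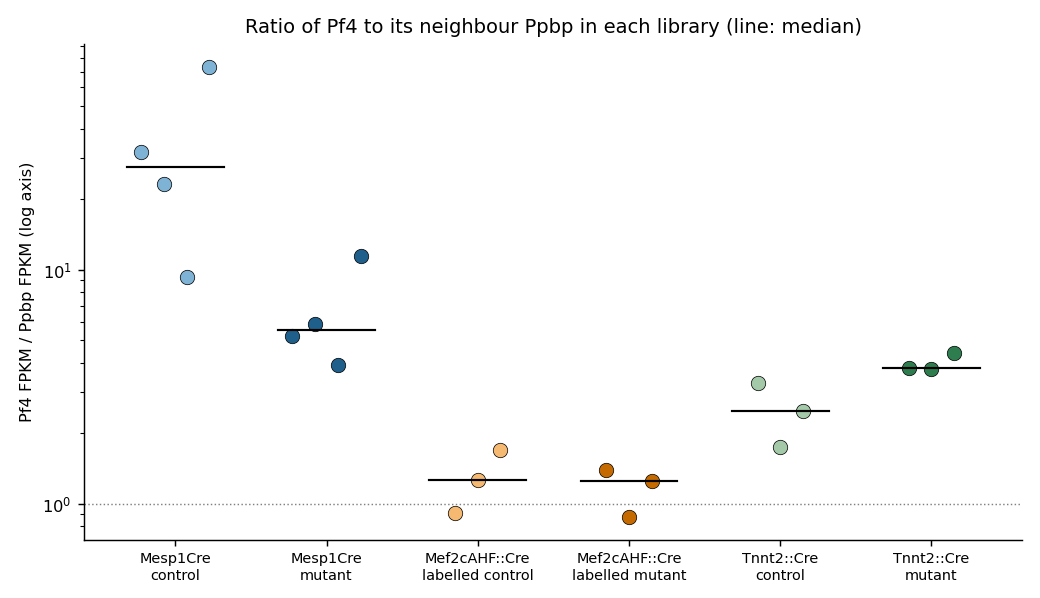
Ratio of Pf4 to Ppbp FPKM (log axis) in each library of the 6 groups; points are libraries, horizontal bars are medians and the dotted line marks equal FPKM. Mesp1Cre controls lie between 9.26 and 73.7, Mesp1Cre mutants between 3.91 and 11.4, Tnnt2::Cre libraries between 1.74 and 4.38 and Mef2cAHF::Cre libraries between 0.875 and 1.69. The Mesp1Cre control ratios rest on 5 to 37 reads of Ppbp.

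Between control whole hearts at E9.0 (Mesp1Cre) and E11.5 (Tnnt2::Cre), all 7 members were higher at E11.5. The log2 difference was 7.07 ± 0.44 for Ppbp, 4.69 ± 0.55 for Gp9, 4.48 ± 0.52 for Treml1, 3.98 ± 0.37 for Pf4, 3.95 ± 0.58 for Gp1bb, 2.72 ± 0.20 for Itga2b and 2.31 ± 0.20 for Plek. Every E11.5 control library was above every E9.0 control library for each member, as for 25.4% of all genes (20.1% in the other direction), and 7 of 7 were past FDR 0.05, against 19.6% of 16697 genes tested that were higher and 38.3% in either direction. These control libraries also enter the mutant comparisons of their lines, and stage, Cre line and sequencing group cannot be told apart here. All 16 erythroid markers (15 past FDR 0.05, median 3.21) and all 15 macrophage markers tested (12 past FDR 0.05, median 2.40) were also higher at E11.5. The part of these cells in the member values was not tested. The smallest stage differences were those of Plek and Itga2b, whose E9.0 control levels were 7.10 to 13.6 and 3.20 to 6.59 CPM. Ppbp, Treml1 and Gp1bb were at 0.0410 to 1.46 CPM in these controls and Gp9 at 0 to 1.14. Pf4, at 2.59 to 9.66 CPM, overlapped Itga2b in level but had a larger difference.

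Beyond the members, 43 other genes of megakaryocytes and platelets were listed by role, of which 42 were in the table. The list holds 12 surface receptors, 9 granule proteins, 13 genes of signalling, enzymes and cytoskeleton (12 in the table) and 9 transcription factors. Like the members, the list was drawn up with results of these data known.

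In Mesp1Cre, 13 of the 39 list genes tested rose in mutants and 0 fell (edgeR FDR 0.05; 17 and 1 at an unadjusted p under 0.05; 15 and 0 by DESeq2), and the median log2 difference of the 39 was 0.68, against 0.00 over all genes tested. Of all genes tested, 6.17% were past FDR 0.05 and higher in mutants and 5.29% lower, and DESeq2 called 16.5% in either direction. Of the 12 receptors, 5 rose. Clec1b, the podoplanin receptor, read 6.79 ± 5.98 CPM in mutants and 1.3 ± 0.803 in the control libraries (SD over 4 and 4, log2 difference 2.37 ± 0.65, adjusted p = 0.0335). F2rl2, the thrombin receptor subunit PAR3, rose by 1.51 ± 0.41 (adjusted p = 0.0322), and Gp1ba, the ligand-binding chain of the von Willebrand factor receptor, by 1.32 ± 0.29 (adjusted p = 0.0121). P2ry1, an ADP receptor, read 13.5 ± 2.72 CPM in mutants and 5.51 ± 2.04 in controls (1.29 ± 0.26, adjusted p = 0.00693). The groups did not overlap for Gp1ba and P2ry1 and overlapped for Clec1b and F2rl2.

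Of the 6 granule genes tested in Mesp1Cre, 3 rose, among them F5, coagulation factor V (1.84 ± 0.51, adjusted p = 0.0351), and Thbs1, thrombospondin 1 (1.08 ± 0.22, adjusted p = 0.00763). Of the 12 signalling genes, 3 rose, among them Alox12, the platelet 12-lipoxygenase (2.03 ± 0.36, adjusted p = 0.00351), and Lcp2, the adaptor SLP-76 (2.04 ± 0.54, adjusted p = 0.0292). Of the 9 transcription factors, Fli1 (0.61 ± 0.12, adjusted p = 0.00701) and Meis1 (0.44 ± 0.09, adjusted p = 0.00889) rose. Both factors were named after their values were seen. The other 7 factors did not pass, with Runx1 at 0.88 ± 0.28, Gata1 at -0.69 ± 0.45 and Nfe2 at -1.05 ± 0.46, and the median of all 9 was -0.22. The count of 13 list genes went to 8 without control 2, control 4, mutant 1 or mutant 3. Vascular endothelium also uses Fli1, Thbs1 and Vwf (which rose by 1.08 ± 0.15, adjusted p = 0.000946), and 3 of 10 endothelial markers rose in the same comparison (Flt1 by 1.09 ± 0.12, Kdr by 0.74 ± 0.08 and Pecam1 by 0.51 ± 0.13). The part of the endothelium in these 3 genes was not tested.

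In the Mef2cAHF::Cre line, 19 of 42 list genes fell in the libraries labelled mutant by edgeR at FDR 0.05 and 0 rose (31 and 1 at an unadjusted p under 0.05; 26 and 0 by DESeq2). The median log2 difference was -1.09, against -0.01 over all genes. Of all genes tested, 1.04% were past FDR 0.05 and lower by the titles and 1.81% higher, and DESeq2 called 6.14% in either direction. By the column names these 19 genes rose in mutants and the median was 1.09. They were 8 of 12 receptors, 4 of 9 granule genes, 6 of 12 signalling genes and 1 of 9 transcription factors, the haematopoietic regulator Runx1 (-1.56 ± 0.33, adjusted p = 0.0409, named after its value was seen). F2rl2 read 6.54 ± 2.43 CPM in labelled mutants and 40.6 ± 26.0 in labelled controls (SD, n = 3 and 3), a log2 difference of -2.63 ± 0.42 (adjusted p = 0.0185).

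The collagen receptor gene Gp6 (-2.11 ± 0.35, adjusted p = 0.0199) and Clec1b (-2.05 ± 0.26, adjusted p = 0.00687) also fell in labelled mutants. Of the granule genes, F5 fell by 2.13 ± 0.33 on the log2 scale (adjusted p = 0.0155) and Mmrn1, a factor V-binding protein of alpha granules, by 1.85 ± 0.34 (adjusted p = 0.0291). Lcp2 (-1.93 ± 0.39, adjusted p = 0.0376) and the thromboxane synthase gene Tbxas1 (-1.92 ± 0.31, adjusted p = 0.0191) were the signalling genes with the largest differences. The groups did not overlap for 27 of the 42 in this direction, against 10.6% of all genes. The number of list genes past the threshold was 1 without labelled mutant 1, 0 without labelled mutant 2 and 9 without labelled mutant 3, and 3 in a fit of all 6 groups together. That last fit called 0.701% of all genes in this line.

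In Tnnt2::Cre, 0 of 42 list genes were past FDR 0.05 by edgeR (5 higher and 2 lower at an unadjusted p under 0.05; 2 higher and 1 lower by DESeq2; 0 by limma), and the median was 0.24. Of all genes tested, 0.293% were past FDR 0.05 in either direction by edgeR and 2.18% by DESeq2. Without mutant 1, 1 list gene was higher and 7 were lower at FDR 0.05, in the fit that called 5.12% of all genes. Between control stages, 19.6% of all genes tested were past FDR 0.05 and higher at E11.5 and 18.8% lower. Of the list genes, 33 of 41 rose towards E11.5 at FDR 0.05 and 1 fell (median 2.30), the faller being Meis1 (-0.61 ± 0.09, adjusted p = 0.000327). The 8 largest rises included Gp6 (3.68 ± 0.75), Alox12 (3.44 ± 0.29), F13a1, coagulation factor XIII A chain (3.39 ± 0.68), Tbxas1 (3.19 ± 0.69) and Nfe2, a transcription factor of platelet release (2.99 ± 0.31). The others were Ptgs1, cyclooxygenase 1 (2.85 ± 0.24), Mmrn1 (2.78 ± 0.39) and Srgn, the granule proteoglycan serglycin (2.77 ± 0.80). Adjusted p values of these 8 lay between 8.22e-06 for Alox12 and 0.0174 for Srgn by edgeR.

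**Figure D4:**
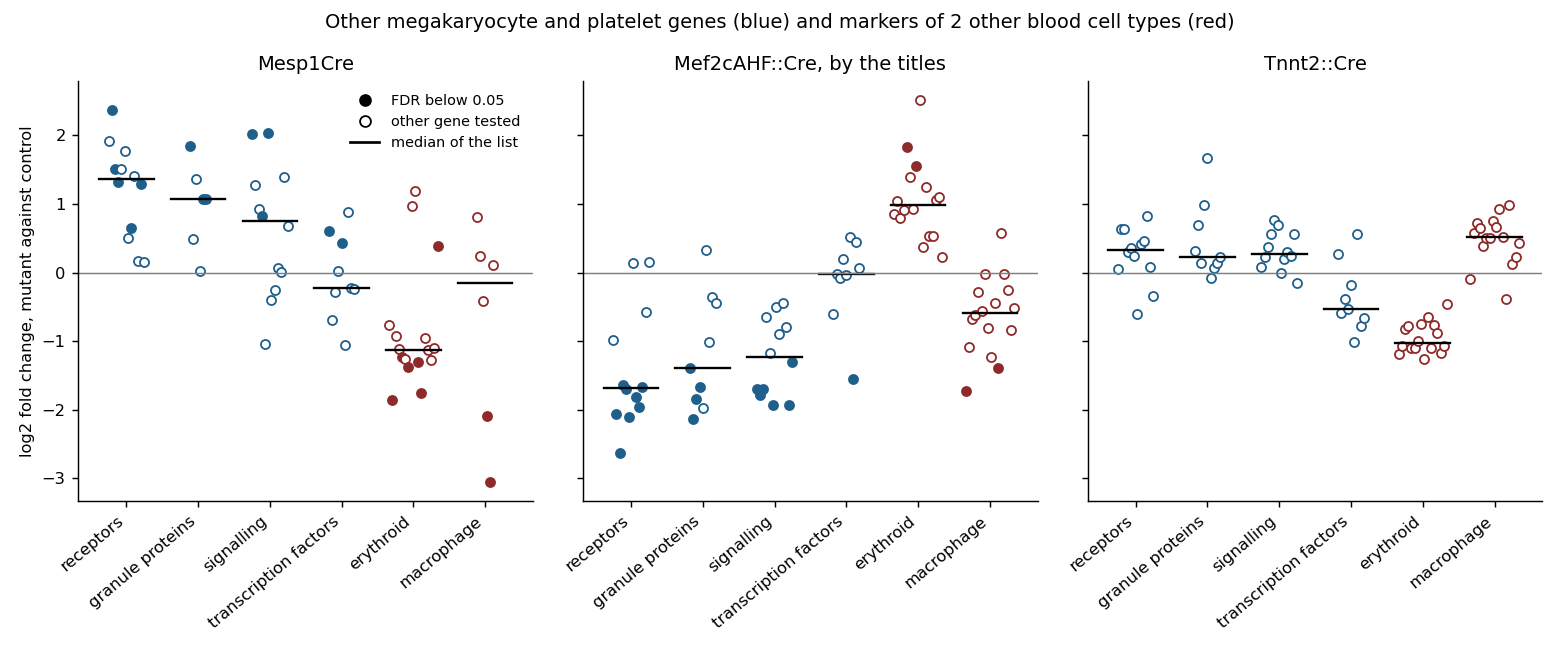
Log2 fold change, mutant against control, of the other megakaryocyte and platelet genes by role (blue) and of erythroid and macrophage markers (red) in each Cre line; 1 point is 1 gene tested, filled points are past FDR 0.05 and black bars are list medians. Platelet receptors have a median of 1.37 in Mesp1Cre, -1.68 in Mef2cAHF::Cre by the titles and 0.34 in Tnnt2::Cre, while the erythroid medians are -1.13, 0.99 and -1.03. By the column names every sign of the Mef2cAHF::Cre panel is reversed.

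The mutant effect itself was compared between lines for the 42 list genes with an interaction term. Line, stage, tissue and sequencing group cannot be told apart in these differences. By the titles, the mutant effect differed for 22 genes between Mesp1Cre and Mef2cAHF::Cre, for 7 between Mef2cAHF::Cre and Tnnt2::Cre and for 3 between Mesp1Cre and Tnnt2::Cre (edgeR FDR 0.05 over all genes tested). By the column names, the counts were 0, 0 and 3 (9, 7 and 8 at an unadjusted p under 0.05). The share of all genes called by these interaction terms is not given here, so no count is read as particular to the list. The 22 and 7 differences were thus called under the titles and not under the column names. The 3 genes that differed between Mesp1Cre and Tnnt2::Cre were Itga2, a collagen-binding integrin chain (1.09 ± 0.23, adjusted p = 0.0157), Vwf (0.83 ± 0.21, adjusted p = 0.0421) and Meis1 (0.60 ± 0.12, adjusted p = 0.0122). The mutant effect on Itga2 was 0.50 ± 0.27 in the first line and -0.61 ± 0.14 in the second, and it passed FDR 0.05 in neither. For Vwf it was 1.08 ± 0.15 and 0.24 ± 0.10, and for Meis1 0.44 ± 0.09 and -0.18 ± 0.08.

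Markers of other blood cells were followed in the same fits. Of the 16 erythroid markers in the table, none was at 0 in any library. In Mesp1Cre, 5 fell and 1 rose at FDR 0.05 (median of the 16, -1.13). The summed level of the 16 was 2403 to 8050 CPM in mutants and 5736 to 18329 in controls. The embryonic globin gene Hbb-y fell by 1.76 ± 0.35 (adjusted p = 0.00766), while Tfrc, the transferrin receptor, rose by 0.39 ± 0.09 (adjusted p = 0.0191). In Mef2cAHF::Cre, 16 of 16 erythroid markers had a positive difference by the titles and 2 were past the threshold (Hba-a1 at 1.83 ± 0.40 and Hbb-b1 at 1.55 ± 0.34), with sums of 26008 to 48326 CPM in labelled mutants and 7520 to 32804 in labelled controls. By the column names all 16 had a negative difference of the same size. In Tnnt2::Cre, 0 of 16 had a positive difference and 0 were past the threshold, also at an unadjusted p under 0.05 (median -1.03).

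Macrophages, which also express Plek, were followed by 17 markers. In Mesp1Cre, 6 of 17 were high enough to test, Lyz2 fell by 3.05 ± 0.40 (adjusted p = 0.000464) and Laptm5 by 2.09 ± 0.46 (adjusted p = 0.0131), and the summed level was 7.84 to 16.4 CPM in mutants and 16.3 to 26.2 in controls. The complement gene C1qa had 0 reads in all 8 libraries of this line. In Mef2cAHF::Cre, 15 of 16 macrophage markers had a negative difference by the titles and 2 passed, Laptm5 (-1.38 ± 0.26) and Aif1 (-1.72 ± 0.38), with sums of 58.5 to 77.9 CPM in labelled mutants and 69.9 to 102 in labelled controls. By the column names these 15 had a positive difference of the same size. In Tnnt2::Cre, 14 of 16 had a positive difference and 0 passed (6 higher and 1 lower at an unadjusted p under 0.05). Neutrophil and mast cell markers summed to at most 11.47 CPM in any library, and 13 of the 20 libraries had 0 reads of Elane. Of 6 progenitor markers, the receptor gene Kit rose in Mesp1Cre mutants (1.85 ± 0.21, adjusted p = 0.000194) and Cd34 fell (-0.58 ± 0.13, adjusted p = 0.0130). In Mef2cAHF::Cre the progenitor factor gene Gata2 was higher by the titles (0.60 ± 0.12, adjusted p = 0.0399) and lower by the column names, and in Tnnt2::Cre 0 of the 6 passed (1 higher and 1 lower at an unadjusted p under 0.05). The part of these cell types in the member values was not tested.

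**Figure D5:**
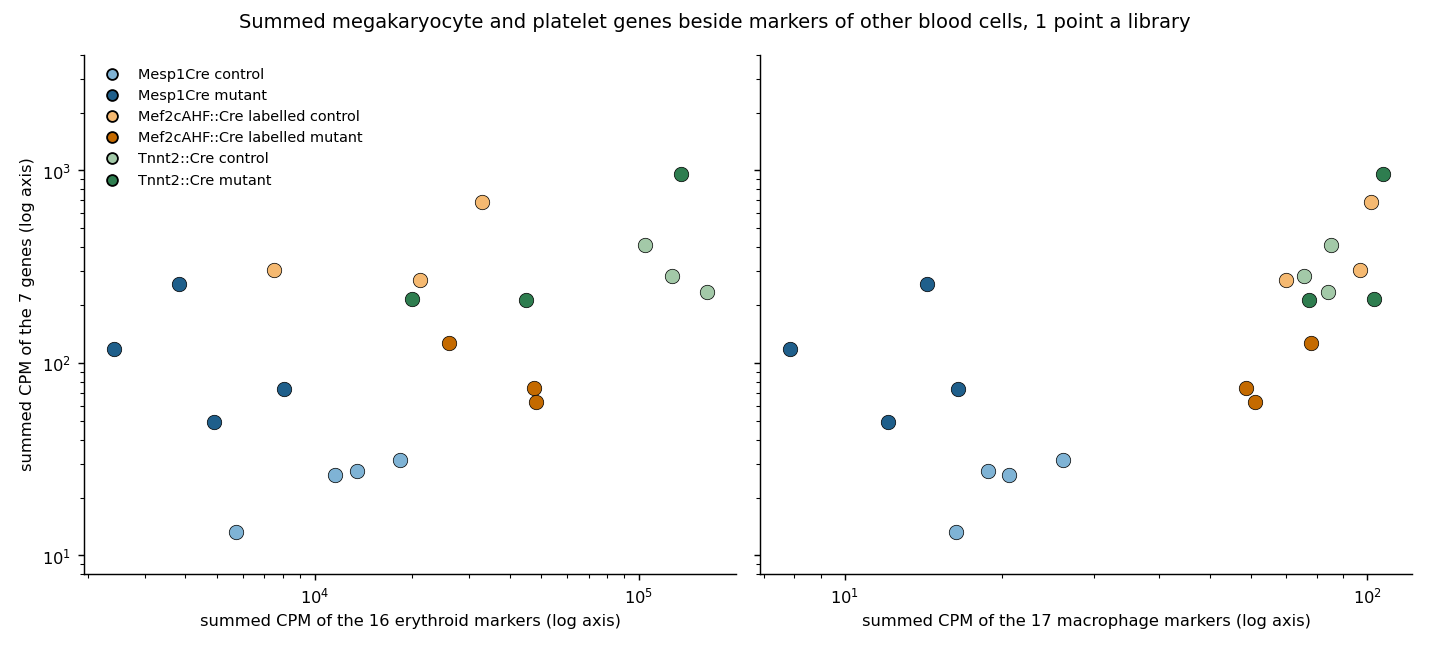
Summed CPM of the 7 members (y axis, log) against summed CPM of 16 erythroid markers (left, log) and of 17 macrophage markers (right, log), 1 point a library, coloured by group. Mesp1Cre mutants (49.2 to 257 CPM of members) lie above Mesp1Cre controls (13.3 to 31.4) while their erythroid sums reach lower (2403 to 8050, against 5736 to 18329), and Tnnt2::Cre mutant 1 has the highest member sum, 957 CPM.

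The members varied together. Over the 20 libraries, Pearson's r between the log2 CPM of 2 members was 0.84 to 0.95 (median 0.90, 21 pairs), and after subtraction of each group's mean it was 0.56 to 0.94 (median 0.81). Libraries of 1 line share stage, tissue and sequencing group, so these values describe the data and carry no test. Among 18391 genes, those most like the mean of the members over 20 libraries included Fermt3, the integrin activator kindlin-3 (r = 0.96), Tbxas1 (0.95), Gp6 (0.93), Lcp2 (0.93), Alox12 (0.93), Gp1ba (0.93) and Slc14a1, a urea transporter of red cells (0.93). After subtraction of group means they included Slc14a1 (0.93), Clec1b (0.92), Lcp2 (0.91), Itgb3, the beta chain partner of Itga2b (0.89), Was (0.89), Pkd1l3 (0.87) and Fyb (0.87). The list by role held 7 of the first 8 genes and 5 of the second 8. That list was drawn up with results of these data known, so these counts are a description. Over the 20 libraries, r for the transcription factors of the list ranged from -0.51 for Meis1, 0.16 for Fli1 and 0.46 for Zfpm1 to 0.71 for both Lyl1 and Gfi1b and 0.82 for Runx1, with Nfe2 at 0.56, Gata1 at 0.59 and Tal1 at 0.64 between them. After subtraction of group means, r was 0.13 for Gata1, 0.15 for Nfe2, 0.25 for Tal1, 0.27 for Meis1 and 0.29 for Fli1. It was then 0.30 for Zfpm1, 0.35 for Lyl1, 0.53 for Gfi1b and 0.63 for Runx1.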

How the data were processed

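RNA was measured by RNA-seq in 20 heart libraries. Per the study's methods, paired reads were aligned to mm9 and assigned to genes with featureCounts, and expression was calculated with USeq. The submitters' processing notes name TopHat2 2.0.8b. The strand setting is not given in the sources used here. The deposited table holds, per library, raw counts and FPKM values that the authors computed, and these were used. Its 20 columns of variance-corrected counts on a log2 scale, also deposited by the authors, were not used.

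CPM were computed from the counts with TMM factors over all libraries, and log2 CPM with a prior count of 2. Each line was fitted on its own by edgeR's quasi-likelihood F test (edgeR 4.0.16, R 4.3.3) on genes passing filterByExpr, with Benjamini-Hochberg adjustment over all genes tested and an FDR of 0.05. SE was taken as the size of the log2 fold change divided by the square root of F. Differences of the mutant effect between lines were interaction terms in 1 fit of all 6 groups. Total counts were 21727258 to 45341870 per library (median 27845622), and 3 reads were taken as the limit that a count of 0 allows, for counting error only. On simulated counts with 200 genes changed by a log2 of 2, the share recovered was 89% in Mesp1Cre, 98.5% in Mef2cAHF::Cre, 98% in Tnnt2::Cre and 95% between stages, and 7.77%, 7.51%, 10.9% and 6.86% of the genes called there had not been changed. The changed genes were drawn from those with a mean above 1 CPM, so the shares recovered do not cover genes below that level. No libraries of a group agreed within sampling noise. Each line was sequenced as 1 group of libraries.

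Named genes were the 7 members, of the other listed genes those past FDR 0.05 or, above 8, the 8 with the largest log2 fold change (average log2 CPM not below 0), the 8 genes most correlated with the members' mean, and annotated overlaps, except that 1 gene of the list is not reported here by name. The members and all gene lists were chosen with earlier results of these data known. Marker lists covered erythroid, macrophage, neutrophil and mast, progenitor, endothelial and heart muscle cells. Alternatives were DESeq2 1.42.0 size factors and its Wald test, limma 3.58.1 on log2(FPKM + 0.1) and log2(FPKM + 1), looser and stricter filters, a fit of all 6 groups, hemoglobin genes left out, a replicate block, genotypes by the column names, and leaving out each library.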

Additional observations from a re-analysis of the deposited data

Results flagged for a closer look

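By the titles, the mutant effect on the other platelet genes differed by interaction test (edgeR FDR 0.05) for 22 genes between Mesp1Cre and Mef2cAHF::Cre, 7 between Mef2cAHF::Cre and Tnnt2::Cre and 3 between Mesp1Cre and Tnnt2::Cre. By the column names the first 2 counts were 0. The share of all genes called is not given for these counts. The differences in log2 fold change of Mesp1Cre less Mef2cAHF::Cre were 4.42 for Clec1b, 4.12 for F2rl2, 3.95 for both Lcp2 and F5, 3.88 for Gp6, 3.72 for Alox12 and 3.31 for Tbxas1, which were among the 8 largest. Those of Mef2cAHF::Cre less Tnnt2::Cre were -3.28 for F2rl2, -2.66 for Pdgfb, -2.50 for P2rx1, -2.23 for Itgb3, -2.12 for Runx1, -1.21 for Gng11 and -0.87 for Fli1. Those of Mesp1Cre less Tnnt2::Cre were 1.09 for Itga2, 0.83 for Vwf and 0.60 for Meis1, which do not involve the line with conflicting labels.

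Among the members, every Mesp1Cre mutant was above and every Mef2cAHF::Cre library labelled mutant was below the controls of its line for Pf4 and Ppbp. By the titles the log2 fold changes were 5.66 apart for Pf4 and 7.57 apart for Ppbp, and the difference was not tested. By the column names both lines had the same direction.

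The summed CPM of the granule gene list was highest in Mesp1Cre mutant 3, whose gap to the next library of its group took 0.850 of the group's range (236 CPM against 159 in the lowest). This was 1 of 40 groups looked at, and chance marks about 1 in 20. The same library had the highest Ppbp, Pf4, Plek, Gp1bb, Gp9, Treml1 and Itga2b level of the Mesp1Cre line.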

How the results depend on the processing

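By the column names, the Mef2cAHF::Cre log2 fold changes turned to 2.53 for Pf4, 2.36 for Plek, 2.29 for Ppbp, 2.04 for Treml1 and 1.44 for Itga2b, and the interaction counts of 22 and 7 went to 0 and 0. With limma on log2(FPKM + 0.1), 8 other platelet genes passed in Mesp1Cre. With limma on log2(FPKM + 1), 3 members and 11 other genes passed in Mef2cAHF::Cre. A fit of all 6 groups left 0 members and 3 other genes there. Testing genes with at least 1 count gave 31 other genes in Mef2cAHF::Cre and interaction counts of 16 against Tnnt2::Cre and of 5 between Mesp1Cre and Tnnt2::Cre. DESeq2's Wald test gave 3 other genes in Tnnt2::Cre. The causes were not tested, and the alternatives of the interaction counts were chosen after seeing the data. Between the limma and edgeR fits, the median over all genes shifted to 0.15 in Mesp1Cre with log2(FPKM + 0.1).

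With each library left out in turn, members past the threshold numbered 2 to 3 in Mesp1Cre, 0 to 7 in Mef2cAHF::Cre and 0 to 4 in Tnnt2::Cre, and other platelet genes 8 to 15, 0 to 22 and 0 to 8, with 28 to 35 between stages. The share of all genes called in these fits ran from 6.47% to 13.3%, 0.435% to 3.83% and 0.0228% to 5.12% in the 3 lines. Between stages it ran from 28.0% to 37.0%, and no such share is given for the interaction counts. Interaction counts ran from 15 to 23 (Mesp1Cre and Mef2cAHF::Cre), 1 to 9 (Mef2cAHF::Cre and Tnnt2::Cre) and 1 to 6 (Mesp1Cre and Tnnt2::Cre). The last was 6 without Tnnt2::Cre mutant 1 and 1 without Tnnt2::Cre mutant 3. The one before was 3 without Tnnt2::Cre control 1 or labelled control 3, 2 without Tnnt2::Cre control 2 or labelled mutant 2, and 1 without labelled mutant 1. Fits without 1 library assume that the fewer libraries left vary like the rest.

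With the replicate number as a block, 3, 7 and 0 members and 12, 24 and 0 other genes passed in Mesp1Cre, Mef2cAHF::Cre and Tnnt2::Cre, where 8.71%, 3.06% and 0.164% of all genes were called. Same-numbered libraries correlated between -0.03 and 0.13, over 0.1 in 1 of 10 pairs, so the numbers are not taken as pairing. In Mesp1Cre, levels under 1 CPM of Ppbp, Gp1bb, Gp9 and Treml1 rest on few reads, which limits the precision of their fold changes.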
